A study of Mus musculus with 6 samples.

Results

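The 40 genes described here carry out apoptosis or answer to p53, and they were followed in primary mouse oligodendrocyte precursor cells (mOPCs) after knockdown (KD) of Qk. They comprise the Bcl2 family, caspases with their cofactors and inhibitors, death receptor genes, and Trp53 with its inhibitors and targets. They were chosen by name, and all 40 were found by symbol among the 23038 genes of the files. The mOPCs had been immunopanned from E14.5 mouse embryos and transfected with control siRNAs (siNC, 3 libraries) or with siRNAs against Qk (siQk, 3 libraries), and were collected 72 h after transfection. The cells carried no transgene or deletion that the sources name, and the strain is not given there. A set of 3 different siRNAs against Qk was used, and which of them each siQk library received is not stated. The labels call the libraries of a group biological replicates, and poly-A RNA was sequenced as 75-nt paired-end reads.

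Apoptosis through mitochondria is decided within the Bcl2 family. Bax and Bak1 perforate the outer mitochondrial membrane, Bcl2 and its relatives hold them back, and BH3-only proteins such as Bim (Bcl2l11), Bmf and Puma (Bbc3) release that hold. Cytochrome c then assembles Apaf1 and caspase-9 into the apoptosome, which activates the executioner caspases. The transcription factor p53 is kept low by Mdm2 and Mdm4, and its targets include Bax, Bbc3, Pmaip1, Fas, Ccng1 and Mdm2 itself. Quaking, the product of Qk, is an RNA-binding protein that recognizes ACUAAY and is abundant in cells of the oligodendrocyte (OL) lineage, where it acts on splicing and on mRNA stability.

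The siNC libraries held 58166490, 110818008 and 132085937 tags and the siQk libraries 141045937, 82701288 and 126500113. Levels are given as RPKM, that is tags relative to the exon length of the gene and the size of the library, and can be compared between genes. Qk itself had 209, 206 and 163 RPKM in siNC 1 to 3 and 51.3, 76.6 and 36.2 RPKM in siQk 1 to 3. The summed level of 10 OPC markers ranged from 1199 to 1372 RPKM in the siNC libraries and from 1487 to 1651 RPKM in the siQk libraries, so that OPC genes were present in every library. Of these 10, Cspg4, Olig1, Olig2 and Nkx2-2 rose, Lhfpl3 fell and 5 were not called. Myelin and mature OL markers were also present, and 8 of 10 fell in the siQk libraries, with summed levels of 3367 to 5918 RPKM in siNC and 1412 to 2146 RPKM in siQk. All 10 markers of dividing cells rose, with summed levels of 44.7 to 48.8 RPKM in siNC and 106 to 208 RPKM in siQk. Of the astrocyte markers, 4 of 7 tested fell, among them Gfap from 69.1 to 9.85 RPKM, with summed levels of 289 to 410 RPKM in siNC and 284 to 307 RPKM in siQk. Of the neuron markers, Snap25 (from 0.751 to 5.18 RPKM) and Nefl (from 1.88 to 6.36 RPKM) rose and Gad2 fell among 8 tested, with Stmn2 near 0 and Slc17a6 at 0. The neuron markers summed to 105 to 176 RPKM in siNC and 86.8 to 126 RPKM in siQk. Most of each sum was Tubb3, at 97.6 to 166 RPKM in siNC and 68.4 to 104 RPKM in siQk, which was not called. In bulk RNA, fewer cells of a type and less RNA per cell cannot be told apart, and whether the shift in these markers contributed to any result below was not tested.

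The members covered a wide range of levels. In siNC mOPCs, 16 of the 40 had a mean over 10 RPKM, 16 lay between 1 and 10 RPKM and 8 were under 1 RPKM. Bax was the most abundant member in both groups, with a mean of 102 RPKM ± 4.76 (SD, n = 3) in siNC and 103 RPKM ± 3.98 in siQk. It was followed in siNC by Mcl1 at 42.9 RPKM ± 3.30, Bak1 at 37.4 RPKM ± 4.63, Trp53 at 34.6 RPKM ± 7.43 and Mdm2 at 29.7 RPKM ± 0.644. Bak1 and Trp53 did not differ in siNC beyond their spread, whereas Bax lay far above both. At the other end were Casp8, Casp1, Bik and Perp, none of which exceeded 0.0448 RPKM in any library. The 40 members summed to 489 to 542 RPKM in the siNC libraries and to 542 to 557 RPKM in the siQk libraries.

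**Figure D1:**
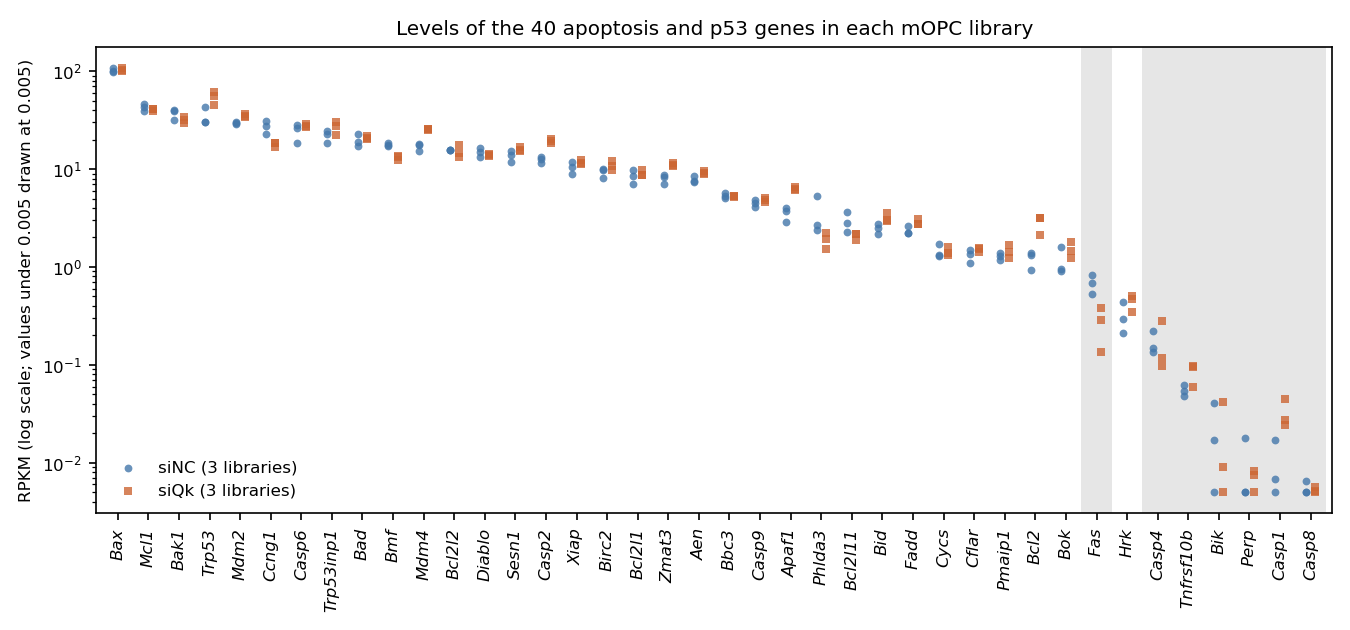
RPKM (log scale) of the 40 members in each of the 3 siNC libraries (circles) and 3 siQk libraries (squares), ordered by their mean in siNC. Grey columns are the 7 members under the expression minimum of the test. Bax stands at the top near 100 RPKM in both groups, and Bcl2, Apaf1 and Fas are among the genes whose groups separate.

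Of the 40 members, 33 had an average logCPM over 0 and were tested between siQk and siNC with edgeR's quasi-likelihood test. In all, 10 of the 33 (30.3%) passed both cutoffs of the study, P below 0.01 and FDR (Benjamini-Hochberg) below 0.1, and were called changed. Bcl2, Casp2, Apaf1, Mdm4 and Zmat3 rose, while Mcl1, Bcl2l11, Bmf, Diablo and Ccng1 fell. Among all 12505 genes tested 31.0% were called, 13.8% higher and 17.2% lower, so the share of members called was near that of all genes. The median log2 fold change was 0.034 over the tested members and 0.010 over all tested genes, and the median absolute log2 fold change was 0.203 and 0.252, respectively. A log2 fold change of at least 1 in either direction was reached by 2 of 33 members (6.06%), Bcl2 and Phlda3, and by 8.06% of all tested genes. At an FDR below 0.05 alone, 13 members were called against 36.9% of all tested genes, the additional members being Bak1, Trp53 and Phlda3.

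The scale on which the libraries are compared matters for the small changes. The TMM factors, which scale each library in the test, were 0.899 to 0.987 in siNC and 1.04 to 1.07 in siQk, so that fitted changes lie below those seen in RPKM. RPKM ranges of the groups did not overlap for 14 of 33 tested members, compared with 58.3% of all tested genes. In CPM of the TMM-scaled library (scaled CPM), the groups did not overlap for 13 of 33 members, compared with 54.4% of all tested genes. All 10 called members were among the 13, the others being Bak1, Phlda3 and Bbc3, all lower in siQk. The calls of Bcl2, Casp2, Apaf1, Mdm4, Zmat3, Bmf and Ccng1 were made under each of 12 alternative settings, those of Bcl2l11, Mcl1 and Diablo were not, and the exceptions stand beside each gene.

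**Figure D2:**
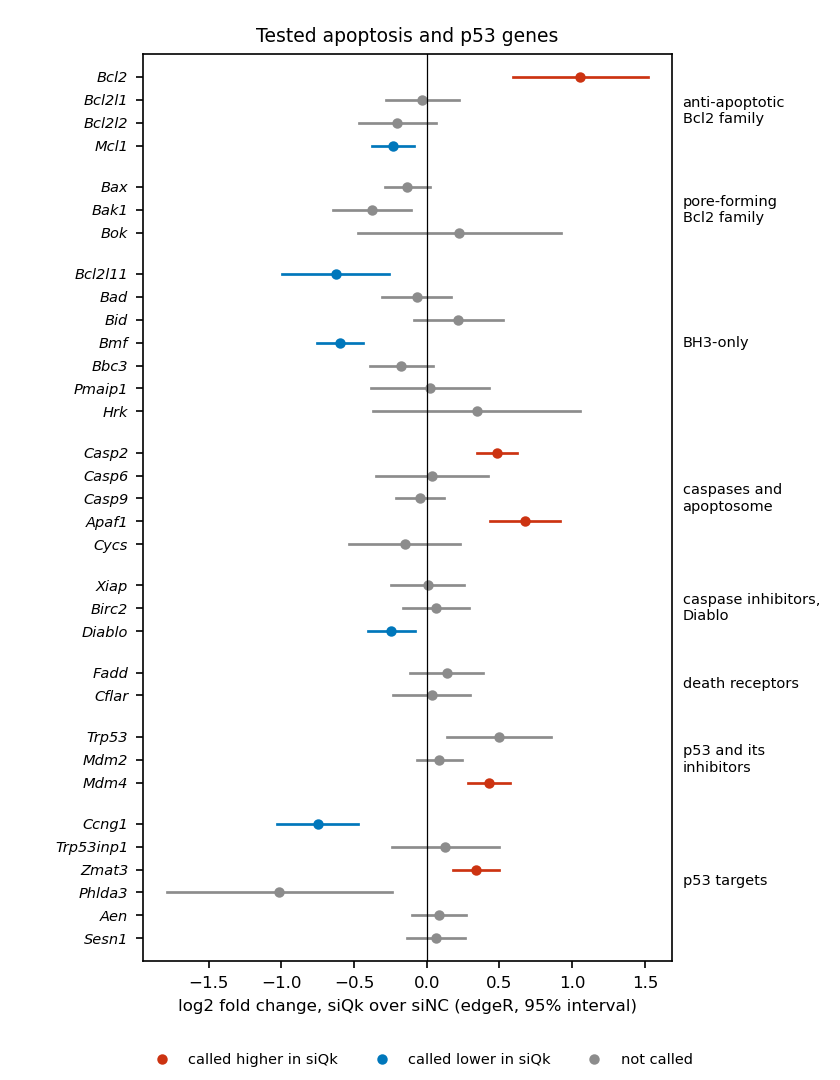
Log2 fold change, siQk over siNC, of the 33 tested members by role, with 95% intervals from edgeR. Points mark members called higher (5), called lower (5) or not called (23), and calls in both directions are found within the anti-apoptotic genes and within the p53 targets.

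Among the 4 anti-apoptotic genes, Bcl2 rose and Mcl1 fell (50%, compared with 31.0% of all tested genes called). Bcl2, the founding member of the family (chr1:106538178-106714274, GRCm38), had 0.929, 1.32 and 1.39 RPKM in siNC 1 to 3 and 2.12, 3.13 and 3.14 RPKM in siQk 1 to 3. All siQk libraries lay above all siNC libraries, with siQk 1 the lowest of its group. The fitted level of Bcl2 was 2.08-fold higher in siQk (log2 fold change 1.06 ± 0.20 SE, FDR = 0.0078), the largest rise among the tested members. The gene was covered by 282 to 2073 tags per library.

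Mcl1, a short-lived survival protein encoded at chr3:95658788-95663176, was far more abundant than Bcl2. It had 39.3, 45.9 and 43.5 RPKM in siNC 1 to 3 and 41.0, 41.6 and 38.9 RPKM in siQk 1 to 3, and the groups overlapped in RPKM. In scaled CPM it had 153, 166 and 154 in siNC and 136, 136 and 130 in siQk, with no overlap. It was called lower with a log2 fold change of -0.23 ± 0.06 SE (FDR = 0.024), which is 85.1% of the siNC level. This call was made in 3 of 12 alternatives: Mcl1 was at -0.083 (FDR = 0.42) with library sizes alone and was not called with upper quartile factors (-0.17, FDR = 0.066), no filter (-0.21, FDR = 0.054) or the replicate block (-0.23, FDR = 0.066). Nor was it called without siNC 2 (-0.19, FDR = 0.045), siNC 3 (-0.25, FDR = 0.034), siQk 1 (-0.24, FDR = 0.080), siQk 2 (-0.24, FDR = 0.067) or siQk 3 (-0.21, FDR = 0.082). Bcl2l1, which encodes Bcl-xL, had 7.01 to 9.70 RPKM in siNC and 8.66 to 9.81 RPKM in siQk, and its log2 fold change of -0.032 (95% interval -0.28 to 0.22) did not pass the test. Bcl2l2, which encodes Bcl-w, had 15.7 RPKM in every siNC library and 13.4 to 17.5 RPKM in siQk. Its log2 fold change of -0.20 (95% interval -0.47 to 0.06) was not called either.

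None of the 3 pore-forming genes was called. Bax had 101, 97.4 and 107 RPKM in siNC 1 to 3 and 99.3, 103 and 107 RPKM in siQk 1 to 3, so that the groups overlapped, and its log2 fold change was -0.13 (95% interval -0.29 to 0.02, FDR = 0.15). Bak1 had 39.6, 32.0 and 40.5 RPKM in siNC and 32.0, 34.3 and 29.7 RPKM in siQk. Its log2 fold change of -0.38 ± 0.11 SE missed the cutoff on P (FDR = 0.037) and was called without siNC 2 (-0.49, FDR = 0.0082) and by DESeq2 (-0.38, FDR = 0.010). Bok, a relative of both, was at 0.918 to 1.60 RPKM in siNC and 1.23 to 1.80 RPKM in siQk (log2 fold change 0.22, 95% interval -0.47 to 0.92). The exons of Bak1 share 25.5% of their bases with Ggnbp1 on the opposite strand, and the library kit does not mark strand. Ggnbp1 itself was listed at 0.296 to 0.519 RPKM.

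Of the 8 BH3-only genes, 7 were tested, and 2 of them, Bmf and Bcl2l11, fell. This is 28.6% called, compared with 31.0% of all tested genes called and 17.2% called lower. Bmf, whose protein is tethered to the cytoskeleton in healthy cells (chr2:118528757-118549687), had 17.7, 17.1 and 18.5 RPKM in siNC 1 to 3 and 13.2, 12.5 and 13.5 RPKM in siQk 1 to 3. The spread within each group was small, and the siQk values were all under the siNC values. The fitted level was 66.1% of that in siNC (log2 fold change -0.60 ± 0.07 SE, FDR = 0.0016), the lowest FDR among the tested members. Without any single library, the log2 fold change of Bmf remained called, and over all 12 alternatives it lay between -0.64 and -0.45.

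Bcl2l11 (chr2:128126038-128162547) encodes Bim, which binds all the anti-apoptotic proteins. It had 2.30, 3.62 and 2.79 RPKM in siNC 1 to 3 and 2.17, 2.20 and 1.88 RPKM in siQk 1 to 3. The groups did not overlap, although siNC 1 came close to siQk 2, and siNC 2 stood highest. The log2 fold change was -0.63 ± 0.15 SE (FDR = 0.021), and it was not called with library sizes alone (-0.48, FDR = 0.052) nor without siQk 1 (-0.66, FDR = 0.061), siQk 2 (-0.66, FDR = 0.057) or siQk 3 (-0.56, FDR = 0.066). The log2 fold change was -0.45 without siNC 2, with the call kept (FDR = 0.024).

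Neither of the BH3-only genes known as p53 targets, Bbc3 and Pmaip1, was called. Bbc3 had 5.36, 5.05 and 5.71 RPKM in siNC and 5.16, 5.37 and 5.34 RPKM in siQk (log2 fold change -0.17, 95% interval -0.39 to 0.04). In scaled CPM Bbc3 had 11.8, 10.4 and 11.4 in siNC and 9.69, 9.95 and 10.1 in siQk, with no overlap. Pmaip1, which encodes Noxa, had 1.18 to 1.37 RPKM in siNC and 1.23 to 1.68 RPKM in siQk (log2 fold change 0.024, 95% interval -0.38 to 0.43). Bid, which links death receptors to mitochondria, had 2.18 to 2.74 RPKM in siNC and 2.96 to 3.53 RPKM in siQk, without overlap in RPKM, but its log2 fold change of 0.22 ± 0.13 SE did not pass the test (FDR = 0.22). Bad had a log2 fold change of -0.070 and Hrk one of 0.34 (95% interval -0.37 to 1.06), and Bik, at 0.0414 RPKM or less in every library, was not tested. The exons of Bad and Bid share 20.5% and 17.7% of their bases with Gpr137 and Bcl2l13 on the opposite strand. Gpr137 was itself called lower, from 23.2 to 21.2 RPKM.

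Casp2 and Apaf1 rose among the caspases and apoptosome genes, of which 5 of 8 were tested. This is 40% called of only 5 genes, compared with 31.0% of all tested genes called and 13.8% called higher. Casp2 encodes an initiator caspase that is activated on the PIDDosome, a complex with the products of Pidd1 and Cradd (chr6:42264985-42282508). It had 11.6, 12.7 and 13.3 RPKM in siNC 1 to 3 and 19.4, 20.3 and 18.6 RPKM in siQk 1 to 3, with a clear gap between the groups. Its fitted level was 1.40-fold higher in siQk (log2 fold change 0.48 ± 0.06 SE, FDR = 0.0020). Apaf1, the scaffold of the apoptosome (chr10:90989311-91082770), had 2.91, 4.0 and 3.72 RPKM in siNC and 6.49, 6.12 and 6.21 RPKM in siQk. The siQk values were tightly grouped, and the lowest of them exceeded the highest siNC value. The fitted level of Apaf1 was 1.60-fold higher (log2 fold change 0.68 ± 0.10 SE, FDR = 0.0039).

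The partners of Apaf1 did not pass the test. Casp9 had 4.10, 4.55 and 4.86 RPKM in siNC and 4.61, 5.04 and 4.86 RPKM in siQk (log2 fold change -0.047, 95% interval -0.21 to 0.12). Cycs, which encodes cytochrome c, had 1.28 to 1.71 RPKM in siNC and 1.32 to 1.60 RPKM in siQk (log2 fold change -0.15, 95% interval -0.53 to 0.23), and its reads are uncertain to the degree that processed pseudogenes of it share them. Casp6, an executioner caspase, had 18.4 to 28.3 RPKM in siNC, where siNC 2 was lowest, and 26.7 to 29.0 RPKM in siQk (log2 fold change 0.036). The inflammatory caspases Casp1 and Casp4 were not tested, with at most 0.0448 and 0.281 RPKM in any library. Markers of microglia and myeloid cells, in which both are known to be expressed, summed to 2.78 to 5.85 RPKM in siNC and 1.39 to 2.11 RPKM in siQk. Only P2ry12 and Cd68 of these 10 markers were high enough to be tested, and they made up most of the summed level. P2ry12 had 0.669, 3.20 and 1.19 RPKM in siNC and 0.152, 0.186 and 0.287 RPKM in siQk. It was called lower (log2 fold change -3.16 ± 0.61 SE, FDR = 0.0089), and Cd68 was not called. C1qa was at 0 in every library and Cx3cr1, Tmem119, Itgam, Csf1r and Ptprc were near 0. Casp8, the caspase of death receptors, was listed with 0 to 2 tags per library. A count of 0 allows up to 3 tags at the depth of that library, and this covers counting error only.

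Of the genes that restrain caspases, Xiap and Birc2 did not pass the test, with log2 fold changes of 0.0071 (95% interval -0.24 to 0.26) and 0.065 (95% interval -0.16 to 0.29). Xiap had 8.94 to 11.9 RPKM in siNC and 11.3 to 12.3 RPKM in siQk. Diablo, whose product Smac leaves the mitochondria and displaces these inhibitors from caspases (chr5:123509765-123524176), had 13.2, 14.8 and 16.5 RPKM in siNC 1 to 3 and 13.5, 14.3 and 13.8 RPKM in siQk 1 to 3. The groups overlapped in RPKM but not in scaled CPM, where siNC had 79.9, 83.5 and 91.0 and siQk 69.7, 73.3 and 72.1. Diablo was called lower (log2 fold change -0.24 ± 0.07 SE, FDR = 0.029), a call made in 2 of 12 alternatives. It was at -0.095 (FDR = 0.43) with library sizes alone and was not called with upper quartile factors (-0.18, FDR = 0.081), the filterByExpr filter (-0.23, FDR = 0.039), no filter (-0.22, FDR = 0.060) or the replicate block (-0.24, FDR = 0.063). Nor was it called without siNC 2 (-0.25, FDR = 0.046), siNC 3 (-0.19, FDR = 0.059), siQk 1 (-0.22, FDR = 0.11), siQk 2 (-0.26, FDR = 0.070) or siQk 3 (-0.25, FDR = 0.076). Its exons share 40.9% of their bases with other genes, among them B3gnt4 on the opposite strand, which was at 1.92 to 2.41 RPKM and was not called.

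The death receptor genes were low. Fas had 0.687, 0.531 and 0.819 RPKM in siNC 1 to 3 and 0.382, 0.134 and 0.288 RPKM in siQk 1 to 3, resting on 20 to 195 tags per library, and all siQk libraries lay below all siNC libraries. It did not reach the expression minimum. In a fit of all 19223 genes with any tag, of which 23.4% were called, the log2 fold change of Fas was -1.43 ± 0.37 SE (FDR = 0.025) and it was called lower, whereas the other 6 members without a test were not called. The receptor gene Tnfrsf10b was at 0.0480 to 0.0983 RPKM. Fadd, the adaptor of these receptors, had 2.22 to 2.62 RPKM in siNC and 2.76 to 3.12 RPKM in siQk, and its log2 fold change of 0.14 ± 0.11 SE was not called. Cflar, the decoy of caspase-8, had 1.1 to 1.5 RPKM in siNC and 1.41 to 1.56 RPKM in siQk (log2 fold change 0.034, 95% interval -0.23 to 0.30).

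**Figure D3:**
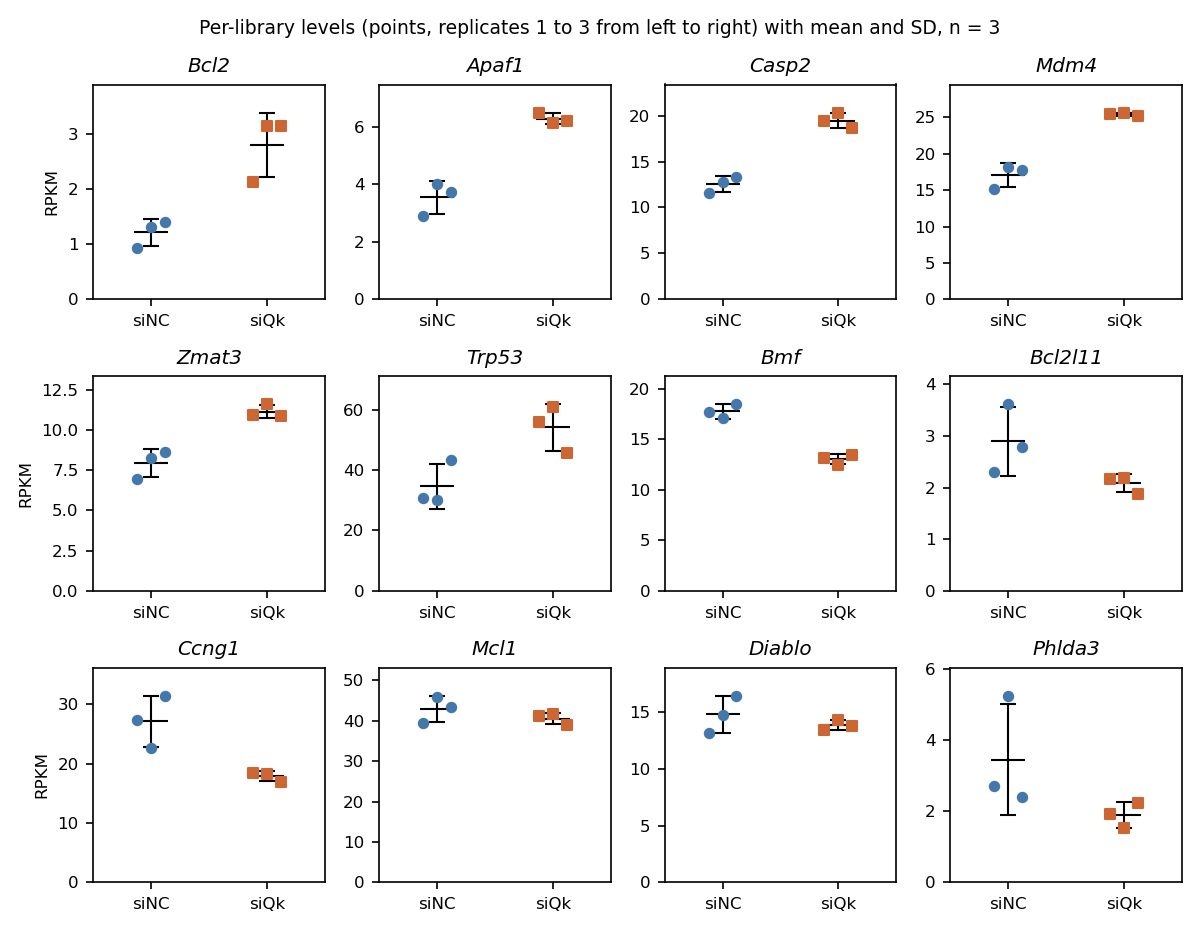
RPKM of the 10 called members and of Trp53 and Phlda3 in each library (points, replicates 1 to 3 from left to right), with the mean and SD of 3 libraries per group, and each axis starting at 0. The groups separate for Bcl2, Apaf1, Casp2, Mdm4, Zmat3, Bmf, Bcl2l11 and Ccng1, and overlap in RPKM for Mcl1 and Diablo.

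Trp53 and both of its inhibitors were higher in every siQk library than in any siNC library in RPKM, but Mdm4 alone was called. RPKM ranges did not overlap for 58.3% of all tested genes either, and 31.0% of them were called. Mdm4 (chr1:132959484-133030561), whose product binds p53 and blocks its activation of genes, had 15.2, 18.2 and 17.7 RPKM in siNC 1 to 3 and 25.5, 25.6 and 25.2 RPKM in siQk 1 to 3. The siQk libraries differed by less than 1 RPKM among themselves, and the fitted level was 1.35-fold higher (log2 fold change 0.43 ± 0.06 SE, FDR = 0.0034). Trp53 (chr11:69580359-69591873) had 30.6, 30.1 and 43.2 RPKM in siNC and 55.9, 60.8 and 45.6 RPKM in siQk, with siNC 3 and siQk 3 close to each other. In scaled CPM these 2 libraries stood at 84.5 and 84.3, so that the groups overlapped slightly. The log2 fold change of Trp53 was 0.50 ± 0.15 SE (FDR = 0.041), which also missed the cutoff on P. It was called without siNC 3 (0.65, FDR = 0.013) and without siQk 3 (0.60, FDR = 0.036), and in 6 of 12 alternatives in all, with log2 fold changes from 0.40 to 0.65 over them. Mdm2, the ubiquitin ligase of p53, had 29.7, 30.3 and 29.1 RPKM in siNC and 33.9, 35.0 and 36.1 RPKM in siQk. In scaled CPM Mdm2 had 90.9, 86.8 and 81.1 in siNC and 88.8, 90.4 and 95.2 in siQk, with overlap. Its log2 fold change was 0.085 ± 0.065 SE (FDR = 0.33), and it was called with library sizes alone (0.24, FDR = 0.023).

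Of the 7 genes listed as p53 targets, 6 were tested, with Ccng1 called lower and Zmat3 higher (33.3%, compared with 31.0% of all tested genes). The p53 targets Bax, Bbc3, Pmaip1 and Mdm2, described above under other roles, were not called. Fas, also a p53 target, was under the expression minimum and was called lower in the fit without a filter (log2 fold change -1.43, FDR = 0.025). Ccng1, which encodes cyclin G1 (chr11:40748552-40755311), had 27.4, 22.6 and 31.3 RPKM in siNC 1 to 3 and 18.5, 18.3 and 17 RPKM in siQk 1 to 3. The siNC libraries were spread and siNC 2 was the lowest of them, yet above every siQk library. The fitted level was 59.5% of that in siNC (log2 fold change -0.75 ± 0.12 SE, FDR = 0.0045). Zmat3, an RNA-binding zinc finger protein (chr3:32334792-32366014), had 6.97, 8.23 and 8.64 RPKM in siNC and 10.9, 11.6 and 10.9 RPKM in siQk. It was 1.26-fold higher (log2 fold change 0.34 ± 0.07 SE, FDR = 0.0096), with no overlap between the groups.

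Phlda3, an antagonist of Akt at the membrane, had 2.71, 5.25 and 2.39 RPKM in siNC and 1.93, 1.52 and 2.23 RPKM in siQk. The value of siNC 2 stood apart, and the other siNC libraries were just above siQk. Its log2 fold change of -1.01 ± 0.33 SE was not called (FDR = 0.048). It was -0.59 (FDR = 0.084) without siNC 2 and was called without siNC 3 (-1.24, FDR = 0.024) and by DESeq2 (-1.02, FDR = 0.0091). Aen, a p53-induced exonuclease, had 7.42 to 8.52 RPKM in siNC and 8.95 to 9.46 RPKM in siQk, and Sesn1, a sestrin, had 11.8 to 15.5 and 15.1 to 17 RPKM. Neither was called, with log2 fold changes of 0.084 and 0.063. Trp53inp1 was likewise not called (log2 fold change 0.13, 95% interval -0.24 to 0.50), and Perp was at 0.0181 RPKM or less.

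A match to the p53 consensus element was looked for in the RefSeq promoter windows (GRCm38.p6) of the members, which span 250 bases before to 50 after each annotated start, because several members are known p53 targets. The element is named here as a pair of half-sites of 10 bases with the C and G of each core fixed, at most 13 bases apart, with up to 2 mismatches, on either strand. Windows were found for 34 members, 49 in all, and 4 of them (8.16%) held a match, as did 4.09% of all 32851 windows and 3.61% of those of the tested genes. The matches of Ccng1 (1 mismatch), Bax and Sesn1 (2 mismatches each) are shown 5′ to 3′ on the strand of the gene with the half-sites in capitals, and that of Sesn1 lies before one of its internal starts.
Ccng1, chr11:40755442-40755501, minus strand: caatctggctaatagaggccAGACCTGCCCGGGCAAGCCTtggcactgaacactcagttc
Bax, chr7:45467070-45467134, minus strand: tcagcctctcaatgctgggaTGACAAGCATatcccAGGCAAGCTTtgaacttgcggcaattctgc
Sesn1, chr10:41887233-41887295, plus strand: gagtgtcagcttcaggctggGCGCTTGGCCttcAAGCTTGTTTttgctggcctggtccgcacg
The match of Casp2 (2 mismatches) spans the start itself and is not printed. Of the 4 genes, Ccng1 fell, Casp2 rose, and Bax and Sesn1 were not called. The match of Ccng1, without a spacer between its half-sites, begins 195 bases before the start, that of Bax 216 bases and that of Sesn1 186 bases before it. Each match describes letters and not a bound site, and elements outside these windows were not searched.

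The 3'UTRs were read for the DNA form of the Quaking recognition motif, ACTAAC or ACTAAT, on the transcribed strand, in the longest 3'UTR that GENCODE M21 (GRCm38) gives each gene. All 5 members that fell carried at least 1 motif, as did 2 of the 5 that rose and 5 of the 23 that were not called. Over all tested genes with a 3'UTR, 36.2% of 10825 carried one, 53.4% of those that fell, 27.2% of those that rose and 33.6% of those not called. Median 3'UTR lengths in these sets of all genes were 1579, 1164 and 1259 bases. Among the members the 3'UTRs were longer, with medians of 2353 bases for those that fell, 5086 bases for those that rose and 1427 bases for the rest. The part of 3'UTR length in these shares was not tested, and with 5 genes on each side the counts are a description.

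The windows of 30 bases around the motif (capitals) are printed for the members that fell, with 1 of 2 motifs for Bmf and Ccng1, and for Casp2, which rose.
Bmf, chr2:118530377-118530406, minus strand: gggaccaaacttACTAACtcaggcaagcca
Ccng1, chr11:40748592-40748621, minus strand: ggacagaagttaACTAACcaactaccatta
Bcl2l11, chr2:128162333-128162362, plus strand: atagtccccatcACTAATgtcagaacccag
Mcl1, chr3:95661452-95661481, plus strand: gacttaaggttcACTAATtagttacaaaac
Diablo, chr5:123517152-123517181, minus strand: atgaacctccaaACTAACgagtccatagag
Casp2, chr6:42282336-42282365, plus strand: ttgaggtgctcaACTAATgtttgttgtatg
Mdm4, which rose, carried 3 motifs, and Trp53inp1, which was not called, carried 5. The 4 ACTAAT motifs of Trp53inp1 lie in near-identical repeats, at 3'UTR positions 1051, 1077, 1103 and 1129. By contrast, Bcl2, Apaf1 and Zmat3 rose and had none in 3'UTRs of 5086, 2139 and 6692 bases. Per kilobase, the members that fell had 0.473 motifs and those that rose 0.187, compared with 0.497 and 0.243 for all genes that fell or rose.

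Beyond the 40 members, 26 other apoptosis genes were listed, 25 of them tested, with 4 higher and 4 lower in siQk (32.0%, compared with 31.0% of all tested genes), and 5 to 12 called over the alternatives. Birc5, which encodes survivin, had 2.11, 2.08 and 2.36 RPKM in siNC 1 to 3 and 8.44, 6.47 and 4.57 RPKM in siQk 1 to 3, a 2.68-fold rise (log2 fold change 1.42 ± 0.21 SE, FDR = 0.0040). Survivin also acts in mitosis. The siQk libraries stood in the same order for Birc5, for Pidd1 and for the proliferation marker Mki67, at 13.7, 12.2 and 7.14 RPKM. A link of these genes to dividing cells was not tested. Tnfrsf21, death receptor 6, had 140, 66.1 and 107 RPKM in siNC and 44.5, 49.9 and 43.8 RPKM in siQk (log2 fold change -1.35 ± 0.27 SE, FDR = 0.011). The cochaperone gene Bag3 fell, with 8.68, 10.9 and 10.5 RPKM in siNC and 5.06, 5.32 and 4.39 RPKM in siQk (log2 fold change -1.18 ± 0.10 SE, FDR = 0.00089). Pidd1, the partner of caspase-2 in the PIDDosome, had 0.858, 0.771 and 0.720 RPKM in siNC and 2.19, 1.87 and 1.52 RPKM in siQk and rose (log2 fold change 1.10 ± 0.18 SE, FDR = 0.0054). The siQk and siNC libraries did not overlap in RPKM for any of these 4 genes, nor for 58.3% of all tested genes. The 4 were picked as called genes with large fold changes, so their separation adds no further support.

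Of 34 other genes of the p53 pathway, 29 were tested, of which 8 rose and 3 fell (37.9%, compared with 31.0% of all tested genes), and 7 to 16 were called over the alternatives. Of all tested genes 13.8% rose and 17.2% fell. The median log2 fold change was 0.20 for these 29 genes and 0.010 for all tested genes. Gtse1, a G2 and S phase protein that restrains p53, had 0.971, 0.675 and 0.850 RPKM in siNC 1 to 3 and 4.44, 3.07 and 2.21 RPKM in siQk 1 to 3 (log2 fold change 1.81 ± 0.29 SE, FDR = 0.0047). The checkpoint kinase gene Chek2 had 1.76, 1.78 and 1.65 RPKM in siNC and 6.88, 5.08 and 3.50 RPKM in siQk (log2 fold change 1.43 ± 0.24 SE, FDR = 0.0060). Chek1 rose from 1.11 to 2.19 RPKM (log2 fold change 0.83 ± 0.21 SE, FDR = 0.021). As for the dividing cell markers, siQk 1 was highest and siQk 3 lowest in all 3 genes, and the part of the change in dividing cells in these results was not tested. Gadd45a, a growth arrest gene induced by p53, had 26.7, 22.5 and 27.4 RPKM in siNC and 14.5, 12.6 and 18.6 RPKM in siQk and fell (log2 fold change -0.90 ± 0.17 SE, FDR = 0.0082). The best known p53 target, the cell cycle inhibitor gene Cdkn1a, had 17.2, 20.2 and 24.4 RPKM in siNC and 17.8, 13.4 and 16.6 RPKM in siQk, with overlap. It was called lower (log2 fold change -0.51 ± 0.14 SE, FDR = 0.029) and was named after its value was seen. Of the remaining called genes of this list, Plk2 (log2 fold change 0.80), Btg2 (0.65), Trp53bp1 (0.61), Rps27l (0.33) and Ercc5 (0.31) rose. Rrm2b (-0.47) fell, and these genes too were named after their values were seen.

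**Figure D4:**
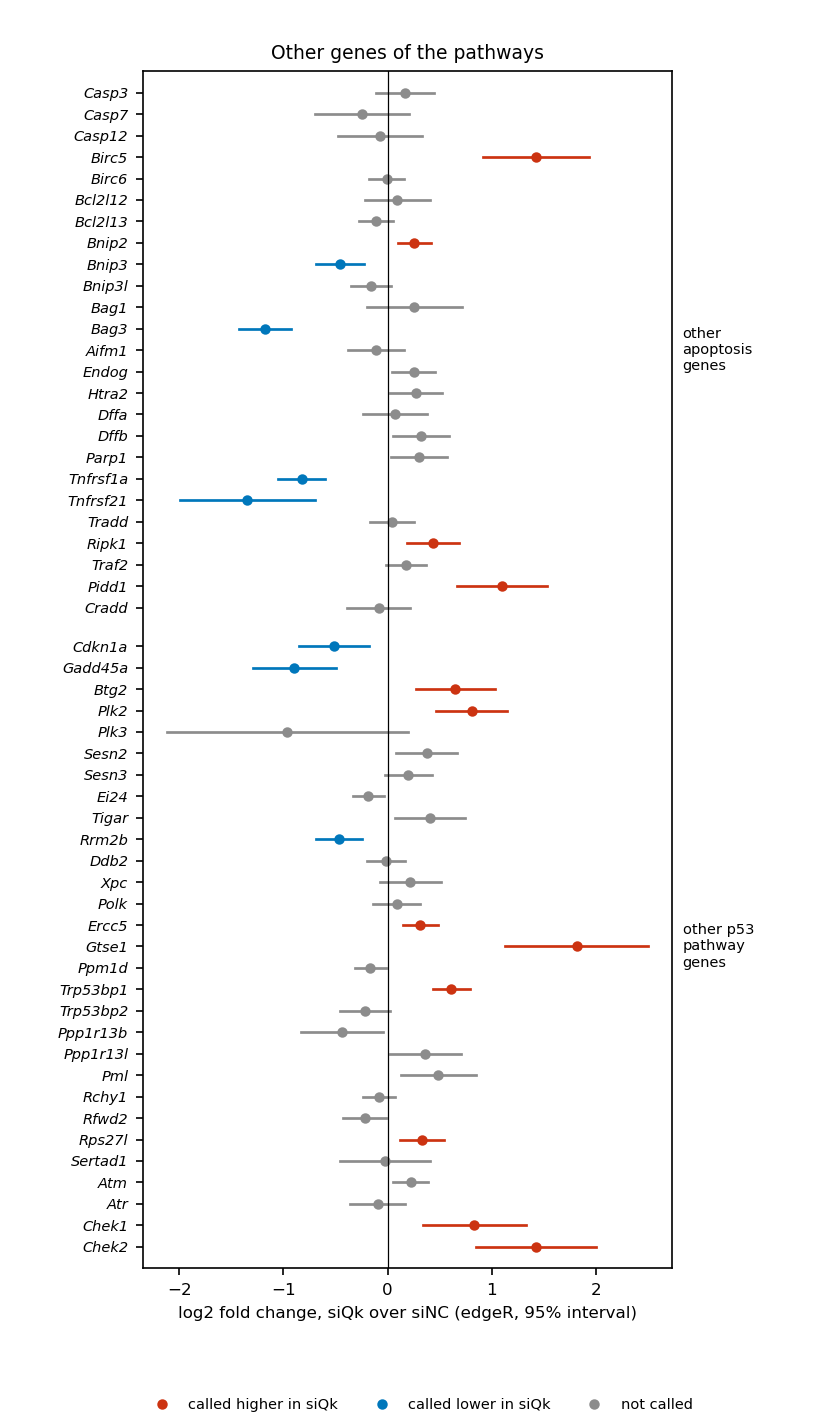
Log2 fold change, siQk over siNC, of the tested genes of the 2 further lists (25 other apoptosis genes and 29 other p53 pathway genes), with 95% intervals from edgeR. Points mark genes called higher (12), called lower (7) or not called (35), with Gtse1, Chek2 and Birc5 farthest to the right and Tnfrsf21 and Bag3 farthest to the left among called genes.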

How the data were processed

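RNA of 6 mOPC libraries was analysed. The authors used OLego for alignment to mm10 and Quantas for gene levels, and neither the versions nor the gene annotation are given in the sources used here. The deposited values are estimated counts of tags per gene, with decimals for 23.1% to 26.2% of genes, and RPKM made from them by exon length and library total. Tags were rounded, genes with an average logCPM over 0 were kept (12505), and edgeR 4.0.16 was run in R 4.3.3 (limma 3.58.1) with TMM factors, its quasi-likelihood test and the group as the only term. Calls needed P below 0.01 and FDR below 0.1, the cutoffs of the study, with FDR adjusted by Benjamini-Hochberg over all tested genes. The SE was taken from the log2 fold change and the F statistic. With 3 libraries per group, an exact permutation test of 1 value (two-sided) cannot go below 0.1. Between replicates the chi-square per degree of freedom was 36.3 or more, so each library counted once. The fit was tested on simulated data. Promoter windows came from RefSeq and 3'UTRs of at least 50 bases from GENCODE M21. The members, the gene lists and the naming rule (Qk, all members, and up to 4 called genes of each further list by absolute log2 fold change) were chosen with earlier results of these data known. Cdkn1a and the remaining called genes of the p53 pathway list were named outside this rule. DESeq2 1.42.0, other normalizations and filters, a replicate block, a cutoff of FDR below 0.05 and each library left out in turn were the alternatives. Exons, isoforms and other cells of the study were not analysed here.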

Additional observations from a re-analysis of the deposited data

How the results depend on the processing

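Of 396 log2 fold changes of the 33 tested members over 12 alternatives, 345 kept their direction and call, 23 lost the call, 11 gained one and 17 reversed, and Qk was called lower in all 12 (-2.29 to -1.76). The members called numbered 9 with upper quartile factors, 9 with library sizes alone and 13 with DESeq2, against 10 with TMM. Members called lower fell from 5 to 3 with upper quartile factors and to 2 with library sizes alone, which also moved their median log2 fold change to 0.18 and that of all genes to 0.16, so that changes are relative to that shift. Lower calls made up 55.4% of all calls with TMM, 44.4% with upper quartile factors and 31.4% with library sizes alone. Same-numbered siNC and siQk libraries had deviations correlated at -0.053, -0.15 and -0.34, which gave no sign of pairing by number. With 3 libraries per group, these values cannot decide whether same-numbered libraries shared a culture. The replicate block left 8 members called (3 lower), 5 other apoptosis genes and 2796 of all genes. Leaving out each library in turn gave 7 to 10 members called, 2 to 5 of them lower (2 without any one siQk library), 5 to 8 other apoptosis genes (5 without siQk 1), 7 to 12 other p53 pathway genes (7 without siQk 1 or siQk 2) and 2470 to 3712 of all genes (2470 without siQk 1). The cause was not tested.

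All 17 reversals were of members not called. Upper quartile factors gave 0.027 for Bcl2l1 and 0.013 for Casp9, library sizes alone 0.11 for Bcl2l1, 0.018 for Bax, 0.080 for Bad and 0.10 for Casp9, and DESeq2 -0.00064 for Xiap. Leaving out each library in turn gave -0.11 to 0.057 for Bcl2l1, -0.16 to 0.017 for Bad, -0.10 to 0.13 for Pmaip1, -0.14 to 0.14 for Casp6, -0.10 to 0.079 for Xiap, -0.0066 to 0.13 for Birc2 and -0.044 to 0.12 for Cflar. The 7 members under the expression minimum, all below 1 RPKM in siNC, were fitted only without a filter on low counts.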
